A study of Homo sapiens with 6 samples.

Results

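The set described here holds 10 genes of interleukin-6 (IL-6) and interleukin-1 (IL-1) signalling, STAT3 and the C/EBP factors, taken by name from a table of 58037 gene rows. All 10 were found: IL6R, IL6ST, OSMR, STAT3, SOCS3, IL1R1, IL1RN, IL1B, CEBPB and CEBPD. They were measured by poly-A RNA-seq in differentiated HepaRG cells, a human line from a hepatocellular carcinoma, per the labels, whose cultures hold cells resembling hepatocytes next to cells resembling bile duct epithelium. In 3 libraries the cells had received palmitate and oleate (1 part to 2, 0.5 mM together, on albumin) for 72 h, and 3 control libraries came from cells given albumin alone (0.02% in both groups). The line was at passages 15 to 18, and both groups had been kept beforehand in a basal medium with insulin and hydrocortisone for 5 days, a glucocorticoid that the controls therefore also had. The series title calls the treated cells a steatosis model, and the design is about drug-metabolizing enzymes. Whether the replicates were separate cultures is not in the labels; each p-value then reflects only how these libraries vary, which may be technical.

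IL-6 binds its receptor IL6R, and the pair engages the shared signal transducer gp130, encoded by IL6ST; oncostatin M uses gp130 together with OSMR. Janus kinases bound to gp130 then phosphorylate STAT3, which enters the nucleus, and STAT3 induces SOCS3, a brake on the same receptor. IL-1 acts through IL1R1 and NF-kappa-B, is blocked by the receptor antagonist IL1RN, and works in hepatocytes together with STAT3 and the factors C/EBP-beta and C/EBP-delta on the acute-phase genes.

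The receptor transcripts OSMR and IL1R1 and that of the feedback inhibitor SOCS3 rose in the fatty acid libraries. Of the 10 genes, 8 reached the mean of 0.5 FPKM (fragments per kilobase of gene, scaled to the library's assigned reads) needed for a test, and 3 of the 8 rose while 0 fell at an adjusted p under 0.05 (limma, Benjamini-Hochberg over all 14661 genes tested). Over all genes 8.22% were called higher and 4.68% lower, and the median log2 fold change was 0.04, against 0.28 for the 8 genes. The set was chosen with earlier results of these data known, so comparing it with all genes gives no support of its own. The groups did not overlap for any of the 8, with 7 higher and 1 lower, where 23.7% of all tested genes were higher without overlap and 13.3% lower. IL1B and IL1RN lay below the minimum and are given by their reads. Log2 fold changes below are fatty acid minus control on the log2(FPKM + 0.5) scale, with SE, and the scale understates changes of low genes.

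**Figure D1:**
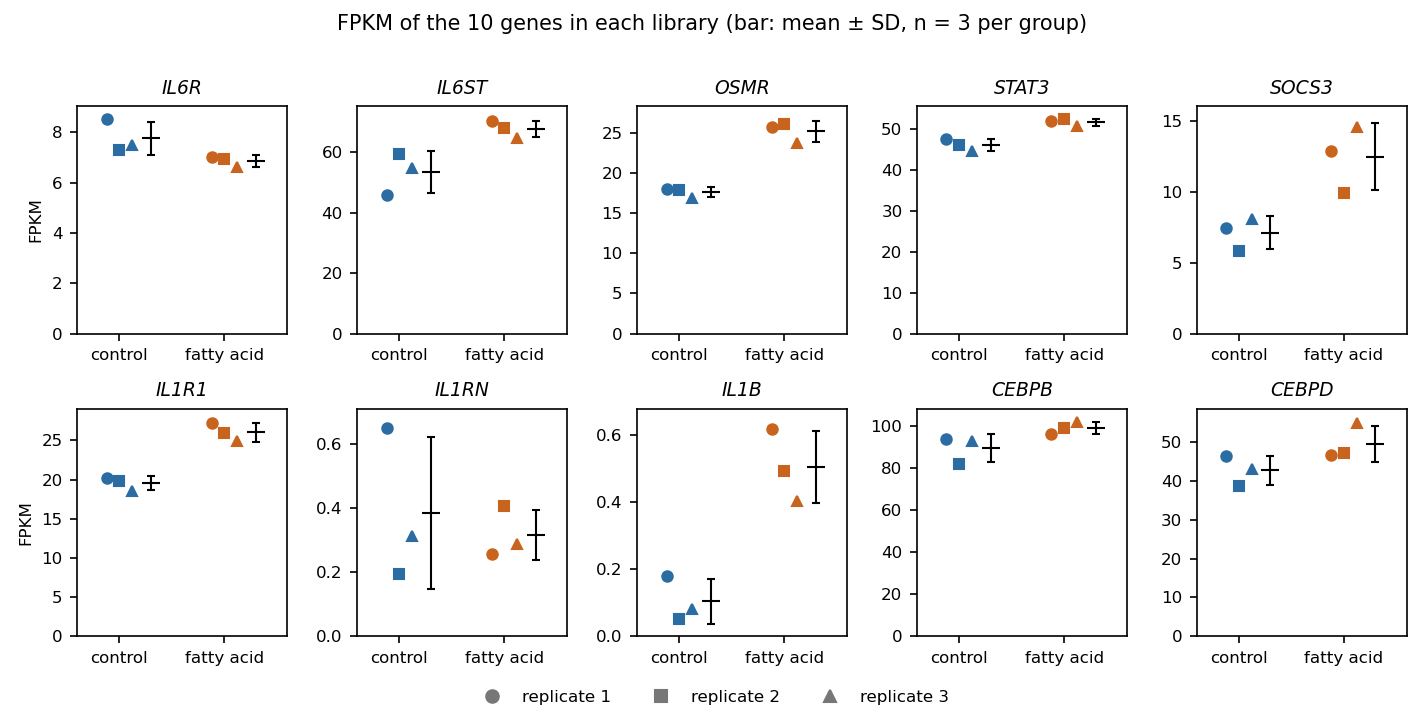
Each panel gives the FPKM of 1 gene (vertical axis from 0) in 3 control (blue) and 3 fatty acid (orange) libraries, with the mean ± SD as a black bar. The OSMR, IL1R1 and SOCS3 points of the fatty acid libraries all lie above the control points, whereas those of IL1RN overlap.

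Depth ranged from 6331372 to 11821423 assigned reads in the control libraries and from 8364570 to 15941353 in the fatty acid libraries. The share of reads from the mitochondrial genome was 13.6 ± 1.37% in controls and 10.3 ± 1.43% with fatty acid (SD, n = 3 each), which enters every FPKM value. Scaling to nuclear reads left the same number of calls in the set, 3 higher and 0 lower, but changed the split over all genes from 1205 higher and 686 lower to 710 and 835. Rescaling to TPM (length-scaled values that sum to the same total in each library) moved that median from 0.04 to 0.18 and the calls in the set to 7. Hepatocyte markers were present, with ALB, the albumin gene, at 6826 FPKM or more in each library. Of 8 such markers 6 fell with fatty acid, where 4.68% of all tested genes were called lower. The 1 that rose, SERPINA1, is also counted below among the type 2 acute-phase genes. In such bulk samples fewer cells of a type and less RNA per cell cannot be told apart.

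STAT and C/EBP factors bind short DNA motifs. The bases around the start sites of the set were searched for TTCNNNGAA (STAT) and TTGCNNAA (C/EBP) on both strands. RefSeq promoter windows (GRCh38.p14, 250 bases before to 50 after each start) were matched for 9 of the 10 genes, 16 windows in all. STAT motifs were in 2 of the 16 and C/EBP motifs in 3, and over all 35116 windows 7.66% and 10.5% held them. Stretches with a match are shown for IL1B, OSMR and IL1R1, the genes with a match before a start, 5′ to 3′ on the gene's strand with the matches in capitals. That of IL1B is the 126 bases of the window outside the deposited table's gene model (chr2:112836904-112837029, minus strand). Those of OSMR (chr5:38845928-38845957, plus) and IL1R1 (chr2:102142249-102142278, plus) lie inside their gene models and are kept to 30 bases.
IL1B: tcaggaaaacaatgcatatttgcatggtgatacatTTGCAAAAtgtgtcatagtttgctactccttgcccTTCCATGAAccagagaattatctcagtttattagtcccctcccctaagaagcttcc
OSMR: aagacgggaaaTTGCAAAAgacctcacccc
IL1R1: tgatccctttTTCACAGAAgaggaaacgga
In IL1B the C/EBP match TTGCAAAA begins 215 bases and the STAT match TTCCATGAA 180 bases before the start. OSMR has the C/EBP match TTGCAAAA 73 bases before its start, and this IL1R1 window, 1 of 4 for that gene, has the STAT match TTCACAGAA at 47 bases. The third C/EBP match lay after the start of another IL1R1 window. Neither window of SOCS3 held these letters. Those windows belong to RefSeq starts at 78360925 and 78359667, whereas its deposited gene model starts at 78360077 (minus strand). The bases just before that gene model start were in neither window and were not searched. A match is a run of letters and not a shown binding site, and which of the annotated starts HepaRG cells use was not analysed here.

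Levels per gene length set the factors and gp130 above the receptors and the receptors above the cytokines. In controls CEBPB had the highest level, 89.6 ± 6.75 FPKM (SD, n = 3), followed by IL6ST at 53.4 ± 6.98, STAT3 at 46.05 ± 1.40 and CEBPD at 42.6 ± 3.75, whose ranges overlapped between neighbours from IL6ST down to CEBPD. IL1R1 (19.5 ± 0.911), OSMR (17.6 ± 0.622), IL6R (7.77 ± 0.658) and SOCS3 (7.15 ± 1.18) came next, and only IL6R and SOCS3 overlapped among them. IL1RN and IL1B stood last, at 0.386 ± 0.237 and 0.104 ± 0.0673 FPKM. With fatty acid SOCS3 lay above IL6R without overlap, and IL1B and IL1RN overlapped.

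The gene of the ligand-binding IL-6 receptor did not pass the test. IL6R (chromosome 1, 154405193 to 154469450, GRCh38 here and below) read 8.52, 7.29 and 7.498 FPKM in control replicates 1, 2 and 3 and 7.02, 6.96 and 6.61 in fatty acid replicates 1, 2 and 3. Each fatty acid library lay below each control library, by a small margin to control replicate 2. Its log2 fold change was -0.17 ± 0.08 (limma adjusted p = 0.187), and it did not pass under any of 17 alternative settings (adjusted p 0.0855 to 0.816).

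IL6ST, the shared signal transducer of the IL-6 family (chromosome 5, 55935095 to 55994993), read 45.8, 59.6 and 54.7 FPKM in the controls and 70.2, 68.2 and 64.8 with fatty acid. The control libraries spread more widely than the treated ones, with control replicate 1 the lowest. With a log2 fold change of 0.35 ± 0.09 it missed the threshold narrowly (limma adjusted p = 0.0506). It passed in 5 of 17 settings: a minimum of 2 FPKM (0.0304), rescaling to TPM (0.0147), voom on recovered reads (0.00297), and without control replicate 1 (0.0439) or control replicate 2 (0.03004), with adjusted p from 0.00297 to 0.170 over all 17. An overlapping pseudogene on the opposite strand had 0.675 and 1.32 mean FPKM.

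OSMR, which pairs with gp130 to bind oncostatin M (chromosome 5, 38845858 to 38945596), rose by 42.9% in mean FPKM. It read 18.0, 17.9 and 16.9 FPKM in the controls and 25.7, 26.1 and 23.7 with fatty acid. The gap between the groups was larger than the range within either. At a log2 fold change of 0.50 ± 0.06 (limma adjusted p = 0.00299) OSMR was called in all 17 settings, with adjusted p up to 0.0276. RICTOR overlaps OSMR on the opposite strand and had 2.03 and 2.18 mean FPKM. No source used here states whether counting used strand. LIFR, the neighbouring receptor gene that also pairs with gp130 (chromosome 5, 38474963 to 38608354), had 8.51 ± 0.982 and 9.60 ± 0.617 FPKM and did not pass (log2 fold change 0.17 ± 0.09, limma adjusted p = 0.261).

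STAT3 (chromosome 17, 42313324 to 42388568) read 47.5, 46.0 and 44.7 FPKM in the controls and 52.0, 52.3 and 50.7 with fatty acid. The treated libraries were all higher, but by only 12.2% in the mean. The log2 fold change of 0.16 ± 0.05 did not pass (limma adjusted p = 0.0614). It passed after rescaling to TPM (0.0293), with voom (0.0346) and without control replicate 1 (0.0415), and ranged from 0.0293 to 0.204 over 17 settings. These are transcript levels and say nothing of STAT3 phosphorylation.

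Among the 8 tested genes SOCS3, the STAT3-induced inhibitor of gp130 signalling (chromosome 17, 78356778 to 78360077), had the largest fold change. It read 7.47, 5.84 and 8.14 FPKM in the controls and 12.9, 9.96 and 14.6 with fatty acid, from 547 and 1324 reads in all. Both groups spread widely (coefficients of variation 16.6% and 18.9%), but the lowest treated library lay above the highest control. In each group replicate 2 was lowest and replicate 3 highest. With replicate number as a block the SE was 0.06 (limma adjusted p = 0.0034), but the labels do not state that the numbers are pairs. SOCS3 passed with a log2 fold change of 0.76 ± 0.16 (limma adjusted p = 0.0241). The call was lost without fatty acid replicate 1 (0.0987) or 3 (0.0683), with no filter (0.0713) and without the intensity trend (0.0527), while the log2 fold change stayed between 0.63 and 0.92 over 17 settings (adjusted p 0.00158 to 0.0987).

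Turning to IL-1, its signalling receptor IL1R1 (chromosome 2, 102064544 to 102179874) rose by 33.2% in mean FPKM. It read 20.2, 19.8 and 18.5 FPKM in the controls and 27.2, 25.9 and 24.9 with fatty acid. All treated libraries were above all controls, with coefficients of variation of 4.67% and 4.44%. Its log2 fold change was 0.40 ± 0.06 (limma adjusted p = 0.00754), called in all 17 settings with adjusted p up to 0.0485. IL1R1 lies in a row of 6 IL-1 family receptor genes on chromosome 2, from 101991844 to 102452565. Of these 4 were tested and 2 rose, IL1R1 itself among them, where 8.22% of all genes tested were called higher. The other one was IL1RL1, the receptor of IL-33 (102311502 to 102352037). It rose from 2.77 ± 0.431 to 8.01 ± 0.402 FPKM (log2 fold change 1.39 ± 0.11, limma adjusted p = 0.000374). IL1RL1 and IL18R1 overlap on the same strand, so reads in the shared stretch may be assigned to either or to none. The decoy receptor gene IL1R2, at the start of the row, had 24.7 and 27.8 mean FPKM and did not pass (limma adjusted p = 0.209).

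IL1B, the gene of the cytokine IL-1-beta (chromosome 2, 112829751 to 112836903), was near its detection limit in control cells and higher with fatty acid. It had 5, 1 and 3 reads in control replicates 1, 2 and 3 and 16, 22 and 20 in the fatty acid replicates. The matching levels were 0.180, 0.0510 and 0.0820 FPKM against 0.618, 0.495 and 0.405, with no overlap. Adjusted for depth the reads were 4.52-fold higher (95% exact conditional interval 2.22 to 10.4), and 6.81-fold higher without control replicate 1, which held 5 of the 9 control reads. The interval covers counting error only. With no filter on low values the gene was tested and passed (log2 fold change 0.74, limma adjusted p = 0.0479). That log2 difference depends on the pseudocount and was 1.603 with 0.1 and 0.447 with 1. Its promoter window held both motifs, where STAT motifs were in 7.66% and C/EBP motifs in 10.5% of all windows. IL1R1 had a match to each in separate windows, that to C/EBP after the start. The part of these letters in the expression values was not tested.

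IL1RN, which encodes the antagonist that occupies IL1R1 without signalling (chromosome 2, 113107214 to 113134016), did not separate the groups. It had 19, 4 and 12 reads in the controls and 7, 19 and 15 with fatty acid, or 0.651, 0.194 and 0.312 against 0.257, 0.406 and 0.289 FPKM. The groups overlapped, and control replicate 1 was the highest library. The depth-adjusted ratio was 0.822 (95% exact conditional interval 0.510 to 1.33) and 1.20 (0.661 to 2.30) without control replicate 1, so no difference was detectable at this depth. With no filter the limma adjusted p was 0.851.

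CEBPB (chromosome 20, 50190734 to 50192689), the C/EBP factor first known as a nuclear factor for IL-6, read 93.9, 81.8 and 93.1 FPKM in the controls and 96.4, 99.3 and 102.1 with fatty acid. The treated libraries were higher, and control replicate 2 stood below the other controls. The log2 fold change of 0.15 ± 0.06 did not pass (limma adjusted p = 0.165). CEBPD (chromosome 8, 47736909 to 47739086), which is induced in hepatocytes in the acute phase, read 46.2, 38.7 and 43.0 FPKM in the controls and 46.5, 47.0 and 54.8 with fatty acid. The lowest treated library exceeded the highest control by less than 1 FPKM. The log2 fold change of 0.21 ± 0.09 did not pass either (limma adjusted p = 0.154). Both passed in 1 of 17 settings, the rescaling to TPM (0.0341 for CEBPB and 0.0289 for CEBPD), with ranges of 0.0341 to 0.378 and 0.0289 to 0.347.

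**Figure D2:**
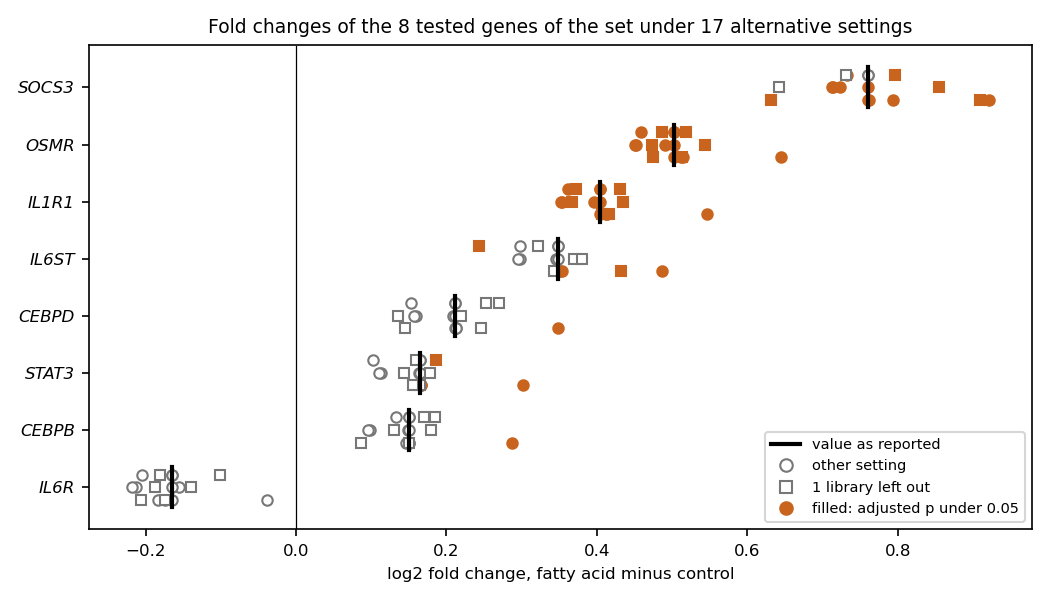
For each of the 8 tested genes the horizontal axis gives the log2 fold change, fatty acid minus control, as reported (black bar) and under 17 alternatives (circles, or squares where 1 library was left out), filled where the adjusted p was under 0.05. All alternatives of OSMR and IL1R1 are filled, those of SOCS3 are filled in 13 of 17, and no symbol of any gene crosses 0.

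Ratios within a library, which scaling does not change apart from the pseudocount, were compared for 6 pairs. The log2 ratio of IL1RN to IL1B was 0.76, 0.33 and 0.48 in the controls and -0.56, -0.14 and -0.20 with fatty acid, so the antagonist transcript was the more abundant in each control library and the less abundant in each treated one, on few reads. Both genes lie near or below the pseudocount, which sets much of the size: the difference was -0.82 with 0.5, -1.73 with a pseudocount of 0.1 and -0.51 with 1. That of IL6R to IL6ST was lower with fatty acid (-2.70 ± 0.30 and -3.21 ± 0.02, SD, n = 3 each), and that of OSMR to LIFR higher (1.01 ± 0.16 and 1.35 ± 0.02). CEBPA, the C/EBP factor of resting hepatocytes, had 5.93 ± 1.78 and 3.44 ± 0.637 FPKM and did not pass itself (log2 fold change -0.68 ± 0.22, limma adjusted p = 0.0828). The ratio of CEBPB to CEBPA was higher by 0.83 and that of CEBPD to CEBPA by 0.89 on the log2 scale. SOCS3 to STAT3 was higher by 0.60. None of the 6 ratios overlapped between groups, and each had an exact permutation p of 0.1 (two-sided, also 0.1 after adjustment over the 6), the smallest that 3 against 3 can give. Each pair holds a gene of the set whose own levels did not overlap, so the ratios partly repeat those results. Of all single genes tested, 23.7% were higher and 13.3% lower without overlap, and the share for other pairs was not computed. The set was chosen with earlier results known.

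**Figure D3:**
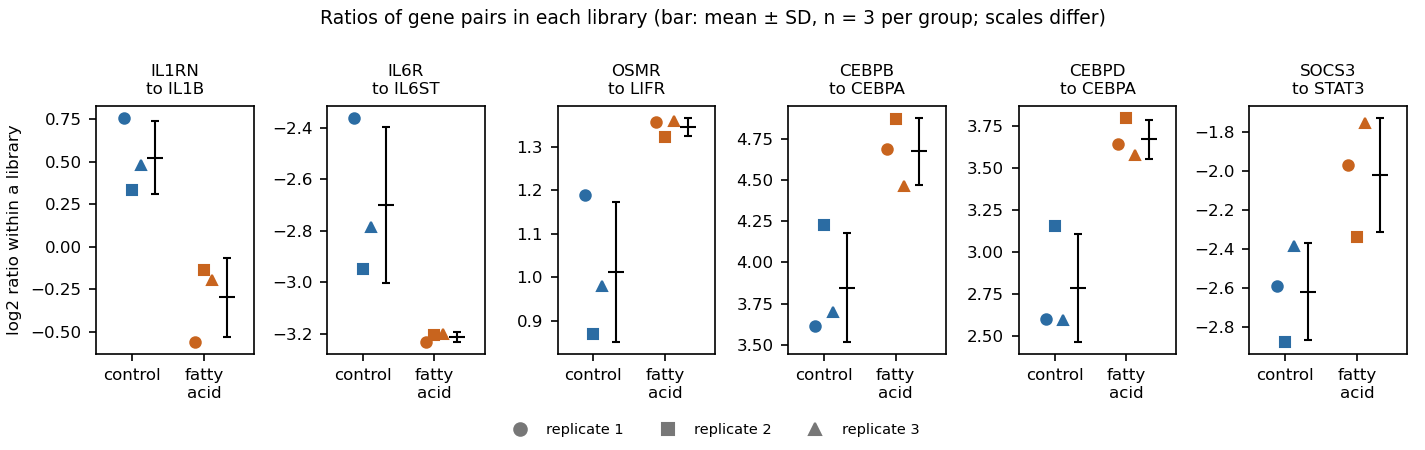
Each panel gives the log2 ratio of 2 genes' FPKM + 0.5 within each of 3 control (blue) and 3 fatty acid (orange) libraries, with mean ± SD in black and its own vertical scale. IL1RN to IL1B and IL6R to IL6ST are lower with fatty acid, and the other 4 ratios are higher.

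The remaining genes of these pathways were taken from 13 lists of 127 genes, of which 100 were tested. Of these 27 rose, 3 fell and 70 did not pass, with a median log2 fold change of 0.14 against 0.04 over all genes tested. Over all genes tested 8.22% were called higher and 4.68% lower, the shares to set beside each list count below. The lists too were chosen with earlier results of these data known. In place of 30 calls there were 13 on leaving out treated library 1 or 2, and 19 on leaving out treated library 3 or with no filter.

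Among 4 tested ligands of the IL-6 family, IL6 and EBI3 rose. IL6 read 0.863, 1.91 and 1.35 FPKM in the controls and 4.16, 2.995 and 2.97 with fatty acid (log2 fold change 1.07 ± 0.22, limma adjusted p = 0.0217). EBI3, a subunit of IL-27 and IL-35, went from 2.32 ± 0.323 to 4.34 ± 1.01 FPKM (0.0253). The call of IL6 was lost with no filter (0.0689) and on leaving out control 3 (0.0593) or any treated library (0.0901, 0.0705 and 0.0521 in replicate order). That of EBI3 was lost with no filter (0.0745), on leaving out control 2 (0.0548) or 3 (0.0639), and on leaving out treated library 2 (0.0946) or 3 (0.0605). LIF did not pass (0.981), and OSM, the ligand of OSMR, was listed at 0 in all libraries but control replicate 3, at 0.0400 FPKM. Of 5 other receptors of the family 1 fell, IL11RA, from 5.88 ± 0.616 to 3.87 ± 0.672 FPKM (0.0324). Its call was lost with no filter (0.0861), without the trend (0.0595), and on leaving out control 1 (0.0696) or 2 (0.0666) or treated library 1 (0.111) or 2 (0.103).

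Downstream of the receptors, 2 of 7 Janus kinase and adaptor genes rose. JAK1, which is bound to gp130, went from 29.6 ± 1.67 to 37.0 ± 2.41 FPKM (log2 fold change 0.31 ± 0.07, limma adjusted p = 0.0269), and PTPN11, the phosphatase SHP2 that docks on gp130, from 30.5 ± 0.487 to 37.4 ± 0.565 FPKM (0.00992). On leaving out treated library 1 or 2, the calls of both were lost (0.118 and 0.112 for JAK1, 0.0668 and 0.0549 for PTPN11). JAK1 was not called without control replicate 3 (0.0733), with no filter (0.0586), after quantile normalization (0.0632) or without the trend (0.0656) either.

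Of 14 other feedback genes of this pathway 4 rose and 0 fell. SOCS1, an inhibitor of Janus kinases, read 2.09, 1.68 and 2.42 FPKM in the controls and 5.37, 4.15 and 5.07 with fatty acid. That fold change (log2 1.07 ± 0.14, limma adjusted p = 0.00411) was called in all 17 settings. The phosphatase genes PTPN2 and PTPN1 rose from 3.51 ± 0.163 to 4.75 ± 0.273 FPKM (0.0201) and from 14.2 ± 0.982 to 17.5 ± 0.414 FPKM (0.0287). SOCS6 rose from 2.66 ± 0.0514 to 3.38 ± 0.137 FPKM (0.0440). The call of PTPN2 was lost on leaving out any treated library (0.0560, 0.0922 and 0.0655 in replicate order). That of PTPN1 was lost on leaving out control 2 (0.0588) or 3 (0.0749) or any treated library (0.117, 0.115 and 0.0667), with no filter (0.0535) or without the trend (0.0635). SOCS6 was not called without any 1 of the 6 libraries (0.0703 to 0.165), with no filter (0.0900), after median of ratios scaling (0.0740), quantile normalization (0.0564) or scaling to nuclear reads (0.0739).

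Of 12 STAT3 target genes outside the acute-phase lists 1 rose and 1 fell, with a median of 0.11. MYC went from 21.9 ± 0.915 to 25.4 ± 0.583 FPKM (limma adjusted p = 0.0472) and CCND1, the G1 cyclin gene, from 34.4 ± 0.916 to 29.8 ± 0.741 FPKM (0.0363). Neither was called on leaving out control 2, control 3 or any treated library (0.0812 to 0.145 for MYC and 0.0756 to 0.147 for CCND1) or without the trend (0.0997 and 0.0912). MYC was not called with no filter (0.0664), median of ratios scaling (0.104), quantile normalization (0.0914) or scaling to nuclear reads (0.119), nor CCND1 after rescaling to TPM (0.488).

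Among the other IL-1 family ligands 2 of 9 were tested, and 1 was called higher, IL33, an alarmin cytokine. It had 14 control and 104 fatty acid reads, a depth-adjusted ratio of 5.21 (95% exact conditional interval 2.97 to 9.86), at 0.145 ± 0.0774 and 0.867 ± 0.205 FPKM. IL33 reached the minimum of 0.5 FPKM only through its fatty acid libraries, so its call (limma adjusted p = 0.0179) gives no support of its own, and without any 1 of those 3 libraries it was not tested. With no filter its adjusted p was 0.0299. Without control replicate 3, which held 9 of the 14 control reads, the ratio was 8.23 (3.42 to 25.9). IL1A was listed at 0 in every library. IL1RL1, the receptor of IL-33 described above, was the 1 gene of 6 tested receptors and decoys that rose. Of 16 adaptor and kinase genes IRAK2 rose, from 3.81 ± 0.358 to 6.23 ± 0.643 FPKM (0.00894), and so did TRIB1, a pseudokinase that promotes the breakdown of C/EBP-alpha, from 5.60 ± 0.323 to 8.07 ± 0.505 FPKM (0.00815). On leaving out treated library 1 the call of IRAK2 was lost (0.0531).

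IL-1-beta is made as a precursor that inflammasomes cut through caspase-1. Of this machinery 4 of 8 genes were tested and 1 rose, CASP4, a caspase that senses lipopolysaccharide in the cytosol, from 8.73 ± 0.323 to 12.0 ± 0.388 FPKM (limma adjusted p = 0.00522). PYCARD, the inflammasome adaptor, was listed at 0 in all libraries, and NLRP3 in all but fatty acid replicate 3 (0.0400 FPKM). In the C/EBP family CEBPG, a partner of the other family members, rose from 9.01 ± 0.219 to 11.5 ± 0.552 FPKM (0.0157), 1 of 3 tested. On leaving out treated library 1 or 2 that call was lost (0.0754 and 0.0790).

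**Figure D4:**
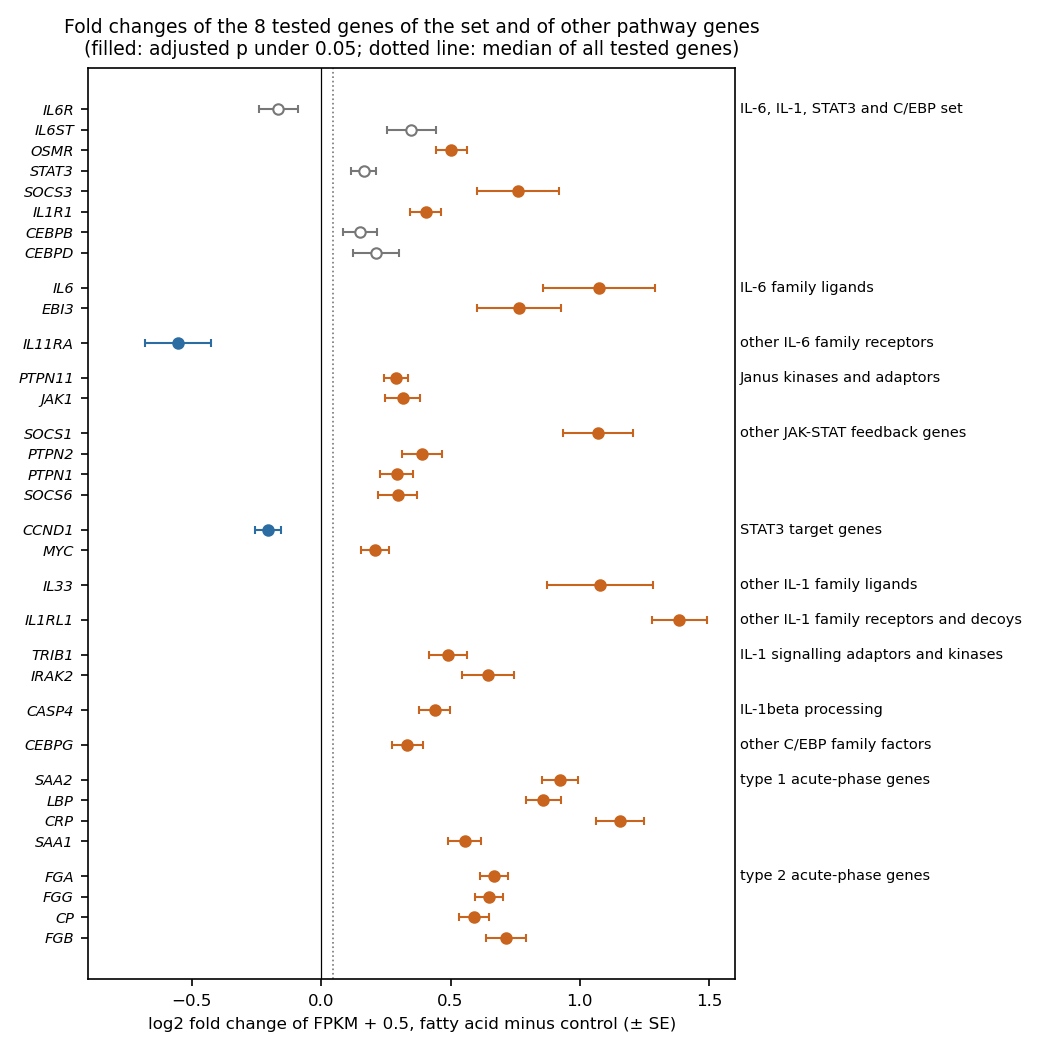
Points give log2 fold changes, fatty acid minus control, with SE (horizontal axis) for the 8 tested genes of the set and 25 other pathway genes, grouped by list, filled where the adjusted p was under 0.05. The dotted line marks the median of all tested genes, 0.04, and IL1RL1 lies farthest to the right at 1.39.

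The acute-phase genes that these factors drive are divided into a type induced by IL-1 with IL-6 and a type induced by IL-6 alone. Of 12 type 1 genes 5 rose and 0 fell, and of 10 tested type 2 genes 6 rose and 1 fell, where 8.22% of all tested genes rose and 4.68% fell. CRP read 101.9, 88.3 and 80.4 FPKM in the controls and 217.0, 191.0 and 194.2 with fatty acid (log2 fold change 1.15 ± 0.09, limma adjusted p = 0.000476). SAA2, SAA1, LBP and HP were the other type 1 genes that rose, with log2 fold changes of 0.92, 0.55, 0.86 and 0.39. SAA1 and SAA2 are near-identical and may share reads, and SAA1 was not called with no filter (0.102). The fibrinogen genes FGA, FGB and FGG and CP, the ceruloplasmin gene, led type 2 with 0.67, 0.71, 0.65 and 0.59. AGT, the angiotensinogen gene, fell from 210.3 ± 25.4 to 160.3 ± 2.51 FPKM (0.0270). Beside these rises, the hepatocyte marker ALB fell from 12025 to 7127 mean FPKM, and the part of such shifts in the acute-phase values was not tested.

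Macrophages are the usual source of IL-1-beta and IL-6 in liver. The sample titles here name HepaRG cells only, and macrophage and leukocyte markers were read in the same libraries. Of 10 macrophage and leukocyte markers 3 were tested and none was called. MARCO, a scavenger receptor gene, was below the minimum and higher with fatty acid without overlap, at 0.322, 0 and 0.122 FPKM in the controls and 0.345, 0.435 and 0.362 with fatty acid (9 and 31 reads). LYZ, the lysozyme gene, had 1.20 ± 0.359 and 1.76 ± 0.378 FPKM, with overlap, and did not pass (limma adjusted p = 0.190). Others went the other way. ITGAM, 1 of the 3 tested, was lower with fatty acid without overlap (0.949 ± 0.133 and 0.798 ± 0.0551 FPKM, limma adjusted p = 0.487). CD68, below the minimum, had 0.399 ± 0.166 and 0.330 ± 0.0644 FPKM, with overlap. CD5L and CD3E were listed at 0 in all 6 libraries, and PTPRC, CD163 and CSF1R reached at most 0.0250, 0.0150 and 0.0490 FPKM. The summed level of the list ran from 11.7 to 16.3 FPKM in the controls and from 15.7 to 16.5 with fatty acid, most of it CD14, which hepatocytes also express. The part of these markers in the IL1B and IL6 values was not tested. Biliary markers (0 of 4 tested called) and mesenchymal and endothelial markers (0 of 5) were not called either.

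The protein-coding genes of at least 1 FPKM whose log2 profile over the 6 libraries was most like each called gene of the set, 2 per gene, were SVIL and ATP2B1 for OSMR (Pearson r = 0.999 for both), BACE2 and LYN for IL1R1 (0.996 for both), and ZFP69B and SRSF10 for SOCS3 (0.997 and 0.996). With 6 points in 2 groups such values mostly repeat the group difference and are given as a description. SRSF10 was not called itself (limma adjusted p = 0.292).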

How the data were processed

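Expression in 3 control and 3 fatty acid libraries, grouped by sample title, is what the authors deposited as FPKM to 3 decimals, with each gene's position and length per the file headers. STAR 2.5.2, Subread 1.5.1, featureCounts and GRCh38 are listed, without roles, per the submitters' processing notes. The cells had 14 days of growth and 14 of differentiation, and stranded mRNA libraries came from 100 ng of RNA, per the labels' protocols. FPKM times gene length gave whole reads in each library for 99.9855% or more of those values whose decimals can show it (tolerance 0.02 reads beyond rounding), which gives the depth.

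Every gene averaging 0.5 FPKM or more over the 6 libraries entered 1 fit on log2(FPKM + 0.5) in limma 3.58.1 in R 4.3.3 (intensity trend, no covariate), p-values were adjusted over all of them by Benjamini-Hochberg, and 0.05 was the threshold. The fit was tested on simulated counts whose spread was set in advance for all genes and not taken from these libraries. That run does not give the error rate for these data. Other settings were pseudocounts of 0.1 and 1, no filter, a minimum of 2 FPKM, median of ratios scaling, quantile normalization, TPM, scaling to nuclear reads, no trend, limma voom on recovered reads, the replicate block, and each library left out, with an exact permutation test of each gene as well. An arm left with 2 libraries shares the pooled spread.

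The 10 genes and all lists were chosen with earlier results of these data known. Named genes were the 10, up to 4 called genes per list with the smallest adjusted p (or 2 where none was called), the genes of the ratios and the 2 most alike genes. Named after their values were seen were LIF, OSM, IL1A, IL1R2, IL18R1, PYCARD, NLRP3, HP, AGT, RICTOR and the marker genes. Symbols absent or repeated in the table were matched by identifier. Python 3.11.15 and matplotlib 3.10.9 were used for reads and figures. A gene that the rule names is not reported here.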

Additional observations from a re-analysis of the deposited data

How the results depend on the processing

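OSMR and IL1R1 kept direction and call in all 17 settings, and no tested gene of the set changed direction in any of them. The number of the set's genes called was 3, against 7 after rescaling to TPM, 5 with limma voom on recovered reads and 2 to 5 with 1 library left out (5 without control replicate 1). Among the other pathway genes the number was 30, against 19 with no filter and 13 to 34 with 1 library left out (13 without fatty acid replicate 1 or 2, 19 without fatty acid replicate 3). The 6 ratios kept their direction under both other pseudocounts and with each library left out, but the difference in the IL1RN to IL1B log2 ratio moved from -0.82 to -1.73 with a pseudocount of 0.1 and to -0.51 with 1, since both genes lie near or below the pseudocount. Over all genes 1891 were called, against 977 with no filter, 1101 without the trend, 3023 after rescaling to TPM, 2999 with voom, and 463, 484, 913 and 1041 without fatty acid replicate 1, 2 or 3 or control replicate 3; the split of higher and lower was 717 and 861 with median of ratios scaling and 758 and 772 with quantile normalization. The causes were not tested.

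With the replicate block the calls were 3 in the set and 29 among the other pathway genes, and the calls of IL11RA, SOCS6, CCND1 and MYC were lost (adjusted p = 0.0575, 0.0848, 0.0678 and 0.0715). Same-numbered libraries shared little of their deviations from the group means (r = 0.0122, 0.0836 and 0.0224 for numbers 1, 2 and 3), so the numbers were not taken as pairs; control replicate 1 correlated best with fatty acid replicate 3 (0.0731). An exact permutation test of 3 against 3 cannot go below 0.1, and each tested gene of the set reached that value. Depth limits IL1B and IL1RN most, with 1 to 22 reads per library.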
